A study of Mus musculus with 12 samples.

Results

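TCRβ CDR3s with hydrophobic residues at positions 6 and 7 were examined in 12 libraries of CD8+ T cells from mice. A member was a productive rearrangement of at least 11 residues whose 6th and 7th letters, counted from the first residue of the deposited CDR3, were both among A, C, F, I, L, M, V, W and Y. The rule uses the sequence alone and no abundance. It was met by 6028 of 203385 productive rearrangements of that length (2.96%), out of 205925 productive rearrangements in all, and these members held 11902 templates. They comprised 5746 distinct nucleotide reads and 4804 distinct CDR3 amino acid (AA) sequences, and 10 of the 6028 did not start with C.

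The C57BL/6 mice bore MC38, a colon adenocarcinoma line grown under the skin. All of them received anti-CTLA-4 Ab and anti-PD-L1 Ab, so that no untreated group was available for comparison here. Splenic CD8+ T cells were sorted into CD27lo CX3CR1-, CD27hi CX3CR1- and CX3CR1+ subsets (CX3CR1 low and high in the sample labels), and CD8+ tumor-infiltrating lymphocytes (TILs) were obtained by CD8a positive selection. Each of the 4 groups had 1 library in each of 3 experiments, called A, B and C here. The paper lists several mice for each experiment, so that each library presumably pools them. The p-values come from exchanging group labels among the libraries of an experiment and do not measure the spread between mice. CX3CR1+ and TIL libraries of the same experiment share clones, which the tests do not allow for. Productive templates, which estimate the cells that carried a rearrangement, ranged from 5893 to 113660 per library and were fewest in the TILs. Rearranged DNA of 1 locus holds no cell type marker, so the labelled cell types could not be checked in these data. Wilson 95% intervals on single libraries cover counting error only.

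The CDR3 of the TCRβ chain is the loop written by joining a V, a D and a J segment with added bases, and its middle residues usually lie over the peptide held by the MHC molecule. Residues 6 and 7 sit near the top of that loop. Hydrophobic residues there are known from mouse work to favour self-reactive TCRs in thymic selection. CX3CR1 is a chemokine receptor found on differentiated effector CD8+ T cells, and CD27 is a costimulatory receptor kept by naive and early memory cells.

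The members on which the results turn are shown here as deposited junction bases, because they show what the rule selects and which segments write it. Each line runs 5′ to 3′ from the codon of the first residue to the last base of the read, which lies 1 codon before the last residue of the CDR3, and capitals mark codons 6 and 7. 
casgdFLsnerlff, first junction: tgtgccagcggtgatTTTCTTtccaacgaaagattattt
casgdFLsnerlff, second junction: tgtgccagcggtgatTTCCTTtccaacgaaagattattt
casgdAIsnerlff: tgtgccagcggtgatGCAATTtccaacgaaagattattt
casgdALggyeqyf: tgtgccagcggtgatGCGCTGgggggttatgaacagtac
caskdWAyeqyf: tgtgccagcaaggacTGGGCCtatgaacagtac
cassfLAntgqlyf: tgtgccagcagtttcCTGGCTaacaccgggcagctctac
ctcsaALggleqyf: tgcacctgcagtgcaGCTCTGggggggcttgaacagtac
casslYAeqff: tgtgccagctctctcTATGCTgagcagttc
The casgdFL, casgdAI and casgdAL junctions use TCRBV13-02. This V gene is Trbv13-2 in RefSeq, a V segment at chr6:41121396-41121832 of GRCm38, the build that mm10 names. The casgdFL and casgdAI junctions also use TCRBJ01-04, which is Trbj1-4, a J segment at chr6:41534811-41534861. The last junction shows a member written with TCRBJ02-01 (Trbj2-1, chr6:41542754-41542803), whose tyrosine and alanine codons come from the J segment in most members with that pair.

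The first comparison asked whether members were as common among the clonotypes of expanded repertoires as among those of the CX3CR1- subsets. Members took a similar share of unique rearrangements in every group. The share was 2.74%, 3.06% and 2.94% in CD27lo CX3CR1- T cells from experiments A, B and C, and 2.90%, 3.07% and 2.96% in the CD27hi CX3CR1- libraries. It was 2.75%, 3.39% and 3.00% in the CX3CR1+ libraries and 2.02%, 3.14% and 3.33% in the TILs. The groups overlapped, and the lowest value, in the TILs of experiment A, rested on 27 members (95% interval 1.39% to 2.92%). CX3CR1+ T cells and TILs, called the expanded groups here because their leading clones hold many templates, differed jointly from the CX3CR1- subsets by -0.00874 ± 0.371 percentage points (SD over 3 experiments, p = 0.963, two-sided exact permutation test of labels within experiments). The CX3CR1+ subset alone differed from the CX3CR1- subsets by 0.0981 ± 0.202 percentage points (p = 0.148, exact permutation test).

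The same rearrangements held a smaller share of templates in the expanded groups. Members held 2.80%, 2.90% and 2.98% of templates in the CD27lo CX3CR1- libraries and 2.90%, 3.06% and 2.95% in the CD27hi CX3CR1- libraries. They held 2.20%, 1.25% and 2.57% in the CX3CR1+ libraries. In the TILs they held 1.24%, 1.22% and 1.62%. Each CX3CR1+ and TIL library was below each CX3CR1- library. The mean over CX3CR1+ T cells and TILs was 1.68%, against 2.93% in the CX3CR1- subsets. The difference was -1.25 ± 0.448 percentage points, in the same direction in 3 of 3 experiments. By the exact permutation test p was 0.00926, the smallest p that this design allows (0.0463 after Benjamini-Hochberg adjustment over the 10 tests made). A nearly identical measure (next paragraph) is among these 10 tests, and without it the adjusted p would be above 0.05. The difference was smaller when libraries were standardised by V gene (-0.816, p = 0.0278, exact permutation test) or by CDR3 length and J gene jointly (-0.687, p = 0.00926, exact permutation test). Not counting A, C and Y as hydrophobic leaves a smaller set, whose points are not comparable with these. For it the template share differed by -0.397 (p = 0.0278, exact permutation test). Its unique share was also lower in the expanded groups (-0.0855, p = 0.0185, exact permutation test). Its template share minus unique share did not pass the threshold (-0.311, p = 0.0556, exact permutation test). Within the spleen, the CX3CR1+ subset was lower by a difference of -0.927 ± 0.709 percentage points in 3 of 3 experiments, again at the smallest p possible (0.037, exact permutation test), which became 0.0926 after adjustment. Without experiment B that difference was -0.524 percentage points, with V gene use standardised across libraries it was -0.569 (p = 0.111, exact permutation test), and with CDR3 length and J gene standardised -0.456 (p = 0.037, exact permutation test). TILs minus the CX3CR1+ subset of their own experiment was -0.956, -0.0255 and -0.953 percentage points in A, B and C, a pair of groups for which the exact test cannot go below 0.25.

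**Figure D1:**
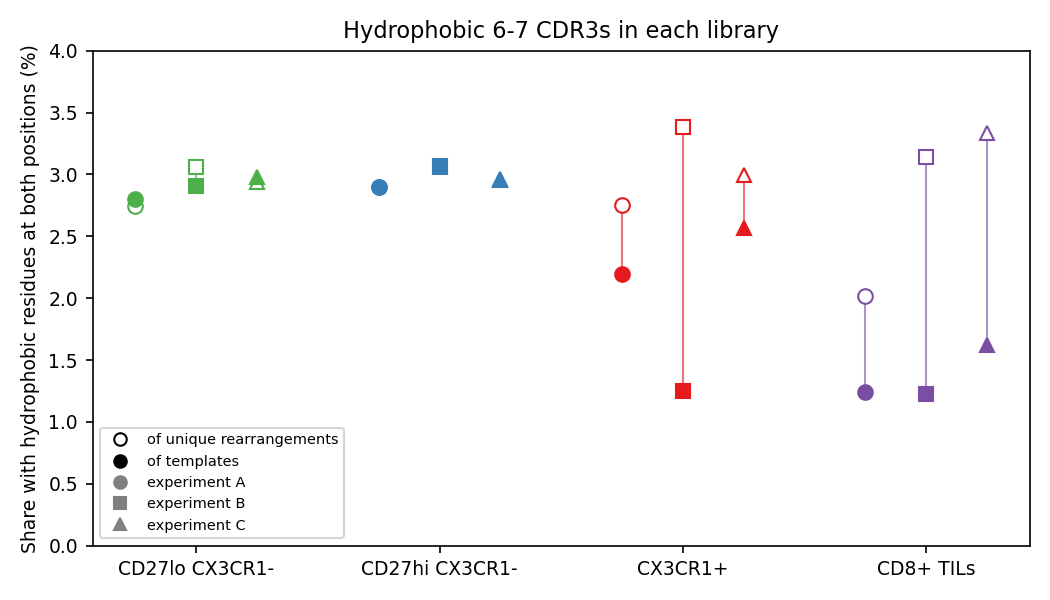
Share (%) of unique rearrangements (open symbols) and of templates (filled symbols) with hydrophobic residues at both positions, for each of the 12 libraries, with a line joining the values of a library and a symbol for each experiment. Open symbols overlap between groups, while the filled symbols of CX3CR1+ T cells and TILs lie at 2.57% or less and those of the CX3CR1- subsets at 2.80% or more.

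The gap between both shares was itself compared. Template share minus unique share averaged -0.0126 percentage points in the CX3CR1- subsets and -1.25 in CX3CR1+ T cells and TILs, a difference of -1.24 ± 0.639 percentage points that was negative in 3 of 3 experiments (p = 0.00926, exact permutation test, 0.0463 adjusted over the 10 tests). Because the unique share hardly differed, this is nearly the same difference as that of the template share and not a separate result. Both count among the 10 tests, and the adjusted p of each would be higher, above the threshold of 0.05, if the other were not counted. A member carried 5.92 ± 2.45 templates on average in the CX3CR1+ subset and other rearrangements 8.91 ± 1.06 (SD, n = 3). In TILs the means were 3.36 ± 0.843 and 7.17 ± 2.46. In the CD27lo CX3CR1- and CD27hi CX3CR1- subsets the means of members (1.40 and 1.28) were within 0.01 of those of other rearrangements (1.40 and 1.29).

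Most members in the expanded groups were small clones, as were most other rearrangements. Among rearrangements with a single template, members made up 3.08% ± 0.195 in the CX3CR1+ subset and 2.85% ± 0.920 in TILs. Among those with at least 2 templates but under 0.1% of productive templates, they made up 3.05% ± 0.607 and 2.92% ± 0.421. Both classes were thus near the share of all unique rearrangements, and the gap lay at the top of the abundance order.

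No member was among the 60 rearrangements formed by the 10 leading clones of the 6 libraries of CX3CR1+ T cells and TILs, where the unique share of members in each library would give 1.76. Of these 60, 12 were hydrophobic at position 6 alone, 14 at position 7 alone and 34 at neither. Among unique rearrangements these classes made up 16.7%, 17.6% and 62.7% in the CX3CR1+ subset and 16.1%, 18.2% and 62.8% in TILs (means of 3 libraries). The leading clones thus did not lack a hydrophobic residue at either position alone. The 10 leading clones held 18.7% to 41.8% of the productive templates of their library. Some CDR3s recur among the 60, such as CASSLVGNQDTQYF in the TILs of A, B and C and the CX3CR1+ libraries of A and C. The 60 are therefore not independent draws. Members accounted for 4 of the 300 rearrangements among the 50 most abundant of each library and for 11 of the 600 among the 100 most abundant (1.83%), where the unique share would give 8.81 and 17.6. Leaving out the most abundant rearrangement of each library left a difference of -1.08 percentage points between the expanded groups and the CX3CR1- subsets (p = 0.00926, exact permutation test). Leaving out 10 per library brought it to -0.600 (p = 0.0648, exact permutation test), and leaving out 50 or 100, alternatives chosen after seeing the data, to -0.0550 (p = 0.889, exact permutation test) and 0.126 (p = 0.417, exact permutation test). As no member was among the 10 leading clones, leaving these out could only raise the member share of the expanded libraries. The smaller difference is therefore no separate support. In these libraries the 50 most abundant rearrangements held 41.1% to 64.8% of productive templates. Whether the leading clones lack hydrophobic residues at both positions together for any reason other than their small number was not tested.

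**Figure D2:**
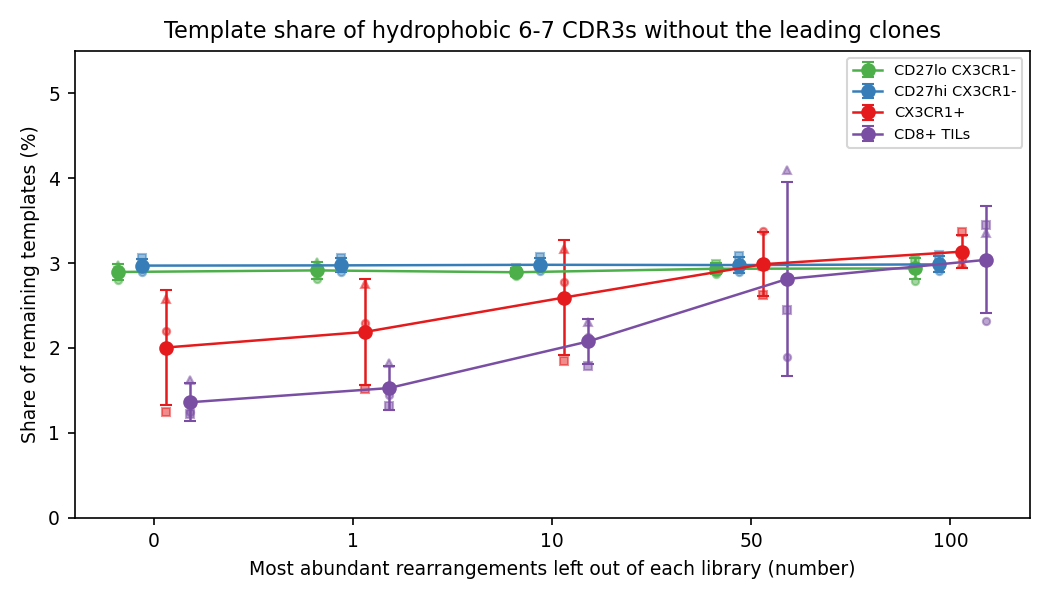
Share (%) of the remaining templates held by members after 0, 1, 10, 50 or 100 of the most abundant rearrangements were left out of each library, as the group mean with SD over 3 experiments (bars) and single libraries (small symbols). The CX3CR1+ mean moves from 2.01% to 3.13% and the TIL mean from 1.36% to 3.04%, while both CX3CR1- means stay between 2.89% and 2.98%.

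Expanded members, defined as nucleotide reads with at least 0.1% of the productive templates of their library, were few. The CX3CR1+ libraries held 5 among 139 expanded rearrangements in A, 0 among 125 in B and 2 among 139 in C. The TILs held 2 among 112, 2 among 124 and 5 among 126. In all, 16 of 765 expanded rearrangements of these 6 libraries were members (2.09%), where the share of unique rearrangements in each library would give 22.6. By group, members were 7 of 403 in the CX3CR1+ libraries, where that share would give 12.2. In the TILs they were 9 of 362, near the 10.4 that it would give. A rearrangement found in several libraries is counted in each. In the CX3CR1- subsets, 1 of 18 expanded rearrangements was a member, in the CD27lo CX3CR1- library of experiment C. Counted as CDR3 AA sequences, with the reads of a CDR3 summed, expanded members numbered 5, 1 and 2 in the CX3CR1+ libraries and 2, 2 and 5 in the TILs. The largest member read stood at rank 43, 136 and 13 in the CX3CR1+ libraries and at rank 37, 49 and 58 in the TILs.

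Named CDR3s are given with the templates of all their reads. The most widespread member, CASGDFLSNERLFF, was found in 9 of 12 libraries and in all 3 experiments, and it was the largest member of the CX3CR1+ and TIL libraries of experiment C. It held 916 templates in the CX3CR1+ library of C (0.806%, 95% interval 0.756% to 0.860%) and 107 in that of A (0.192%). It was not found in the CX3CR1+ library of B, where 0 templates allow a share of up to 0.00588%. In the TILs it held 13 templates in A (0.221%), 6 in B (0.0484%) and 55 in C (0.263%). In the CD27lo CX3CR1- libraries it held 2 templates in A, none in B and 34 in C (0.157%). In the CD27hi CX3CR1- libraries it held 1, 0 and 10. Its 10 distinct reads contained 2 junctions that differ in the phenylalanine codon. The TTC junction was found in the 4 libraries of experiment A that held this CDR3 and nowhere else, and the TTT junction in the libraries of B and C. Within A and within C, the TILs carried the same junction as the CX3CR1+ subset. The 6 templates of the TILs in B had the junction that held 916 templates in the CX3CR1+ library of C, and transfer of reads between libraries was not tested.

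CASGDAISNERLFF, which differs from it in positions 6 and 7 alone, was in 8 libraries. It held 49, 93 and 14 templates in the CX3CR1+ libraries of A, B and C (0.0879%, 0.182% and 0.0123%, the 93 being spread over 5 reads of at most 48 templates) and none in the TILs, where the limit set by 3 templates was 0.0509%, 0.0242% and 0.0143%. Its templates in the CX3CR1- libraries numbered 5 or fewer in each. The 47 CDR3s that share its other 12 residues included 8 members, with FL, AI, AV, VI, II, VY, AL and LA at positions 6 and 7. These 8, a set picked after their values were seen, held 1351 templates, and the other 39 held 107. Of the 1351, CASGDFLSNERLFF held 1144 and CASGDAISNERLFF 173, so that the set is mostly these CDR3s. The 8 made up 13.8%, 14.9% and 33.3% of all member templates in the CX3CR1+ libraries of A, B and C and 18.06%, 4.03% and 18.03% in the TILs. In each TIL library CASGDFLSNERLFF was the only one of the 8 found.

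Other leading members had most of their templates in 1 experiment. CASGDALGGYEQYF held 174 templates in the CX3CR1+ library of A (0.312%), between 3 and 12 in 5 of the CX3CR1- libraries, and none elsewhere. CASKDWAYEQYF held 370 templates in the CX3CR1+ library of C (0.326%) and was found in no other library. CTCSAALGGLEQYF held 44 in the TILs of B (0.355%), the largest share of any member in those TILs, and 2 in the CD27hi CX3CR1- library of B. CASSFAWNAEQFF held 36 in the TILs of C (0.172%). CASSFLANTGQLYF held 106 in the CX3CR1+ library of C (0.0933%), 26 in the TILs of C (0.124%), 8 in the CX3CR1+ library of B and 1 in the TILs of B. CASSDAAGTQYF held 42 in the CX3CR1+ library of B and 1 in the TILs of B.

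Of the longer members, a CDR3 of 16 residues with AF at positions 6 and 7 (TCRBV19-01, TCRBJ02-01) was the largest member of experiment A in both expanded groups, with 189 templates in the CX3CR1+ subset (0.339%) and 14 in the TILs (0.238%). A CDR3 of 15 residues with AW (TCRBV13-03, TCRBJ02-07) held 28 templates in the CX3CR1+ library of B and 13 in the TILs of B. Another with AW (TCRBV13-02, TCRBJ02-01) held 17 and 32 in those of C. One with LW (TCRBV05-01, TCRBJ01-03), held 1 in the CX3CR1+ library of B and 12 in the TILs of B. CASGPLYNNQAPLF was found in the TILs of A alone, with 5 templates. Among the leading members of the TILs were therefore several that the CX3CR1+ subset of the same experiment also held.

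Sharing between the tumor and the CX3CR1+ subset was also counted over all members. Of the TIL members, 8 of 27 in A, 18 of 48 in B and 26 of 71 in C had the same nucleotide read in the CX3CR1+ library of that experiment (29.6%, 37.5% and 36.6%), against 19.98%, 38.0% and 46.6% of other TIL rearrangements. By templates, 50%, 40.9% and 67.5% of TIL members were shared with the CX3CR1+ subset, against 64.0%, 86.1% and 88.1% of other TIL templates. The share by templates was thus lower for members in 3 of 3 experiments, while the share by rearrangements had no single direction. A share by templates gives most weight to the leading clones counted above, which include no member. The TIL members of A held only 72 templates in all. In the reverse comparison, 27.1%, 21.6% and 56.2% of the templates of CX3CR1+ members were also in the TILs of A, B and C, against 21.7%, 54.4% and 70.4% of other CX3CR1+ templates, so that members were higher in A and lower in B and C.

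The members found in most libraries and the leading members of the CX3CR1- subsets had small counts there. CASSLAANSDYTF was the most abundant member of the CD27hi CX3CR1- libraries of B and C, with 12 and 14 templates, and had 14 distinct junctions over the 6 libraries that held it. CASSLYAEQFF was in 8 libraries with 11 junctions and at most 6 templates in any. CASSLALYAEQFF was in 8 libraries with 5 junctions and at most 4 templates in any. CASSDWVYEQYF and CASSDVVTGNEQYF led the CD27lo CX3CR1- libraries of A and B with 7 and 4 templates. Across the series, 1 member CDR3 was in at least 9 libraries, 13 were in at least 6 and 570 in at least 2.

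As a set, members were less often shared between experiments than other CDR3s. Of the 4804 member CDR3s, 9.12% were found in at least 2 experiments and 1.60% in all 3, against 13.5% and 3.72% of the 133454 other CDR3s. The share of a library's CDR3s that recurred in another experiment was lower for members in 12 of 12 libraries (22.3% ± 4.35 against 33.6% ± 3.69). More than 1 nucleotide sequence was seen for 11.5% of member CDR3s and 17.1% of others. These are descriptions, since the libraries are compared with each other and are not independent.

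The share of members depended on CDR3 length and was highest at both ends of the range. Over all libraries pooled, members made up 6.56% of rearrangements of 11 residues, 1.68% at 12, 2.29% at 13, 2.77% at 14, 2.80% at 15, 4.42% at 16, 4.96% at 17 and 5.07% at 18 or more. The mean length was 14.2 ± 0.245 residues for members and 14.0 ± 0.0215 for others, higher for members in 12 of 12 libraries. Of the 575 members of 11 residues, 57.6% used TCRBJ02-07 and 37.0% used TCRBJ02-01, and codon 7 lay wholly in the J segment in 85.2%, against 2.70% of longer members. YA was the leading pair among them (148 of 575), followed by AY (76), LY (57) and IY (53). At a length of 11, the share of members was 6.81% to 7.65% in the CD27lo CX3CR1- libraries and 6.40% to 7.11% in the CD27hi CX3CR1- libraries. It was 4.52%, 3.66% and 7.63% in the CX3CR1+ libraries of A, B and C, the last within the range of the CX3CR1- subsets, and 0%, 3.33% and 3.12% in TILs, which rest on 4 members of 176 rearrangements, and where 0 of 52 in A allows a share of up to 5.77%. These values were not tested.

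**Figure D3:**
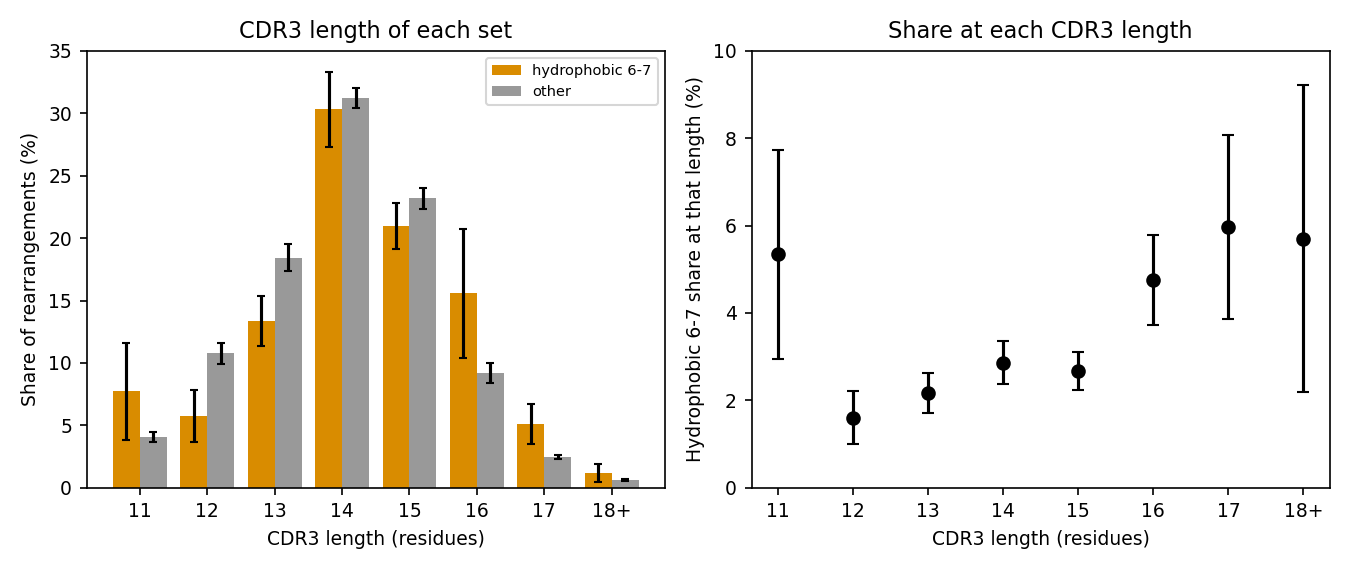
CDR3 length of members and other rearrangements (left, share of each set in %, mean with SD over 12 libraries) and the share of members at each length (right, mean with SD over 12 libraries). Members are scarcest at 12 residues and their share is higher at 11 and from 16 upward.

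V use differed between members and other rearrangements, above all in TCRBV13-02. This gene was used by 22.1% ± 4.15 of members and 8.48% ± 0.734 of others (SD, n = 12 libraries), and TCRBV13-01 (Trbv13-1, chr6:41116036-41116468) by 9.98% ± 1.76 and 6.15% ± 0.476, each higher among members in 12 of 12 libraries. TCRBV02-01 (Trbv2, chr6:41047556-41047995) was the V gene lower among members in 12 of 12 libraries, at 1.5% against 3.65%. Members made up 6.63% of all TCRBV13-02 rearrangements. Alanine was at position 6 in 65.4% of members with TCRBV13-02, and at least 1 base of codon 6 came from the V segment in 74.4% of them. Over all members these shares were 40.9% and 47.0%. Because the rule reads codons 6 and 7, differences in the segments that write them follow in part from the rule.

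J use differed in the same manner. TCRBJ02-01 was used by 18.3% ± 2.67 of members and 13.0% ± 1.03 of others, and TCRBJ02-04 by 9.58% ± 1.91 and 7.03% ± 0.522, higher in 12 of 12 libraries. TCRBJ01-01 was used by 4.18% ± 1.87 of members and 9.50% ± 0.723 of others, and TCRBJ01-03, TCRBJ01-05 and TCRBJ01-06 were likewise lower among members in 12 of 12 libraries.

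**Figure D4:**
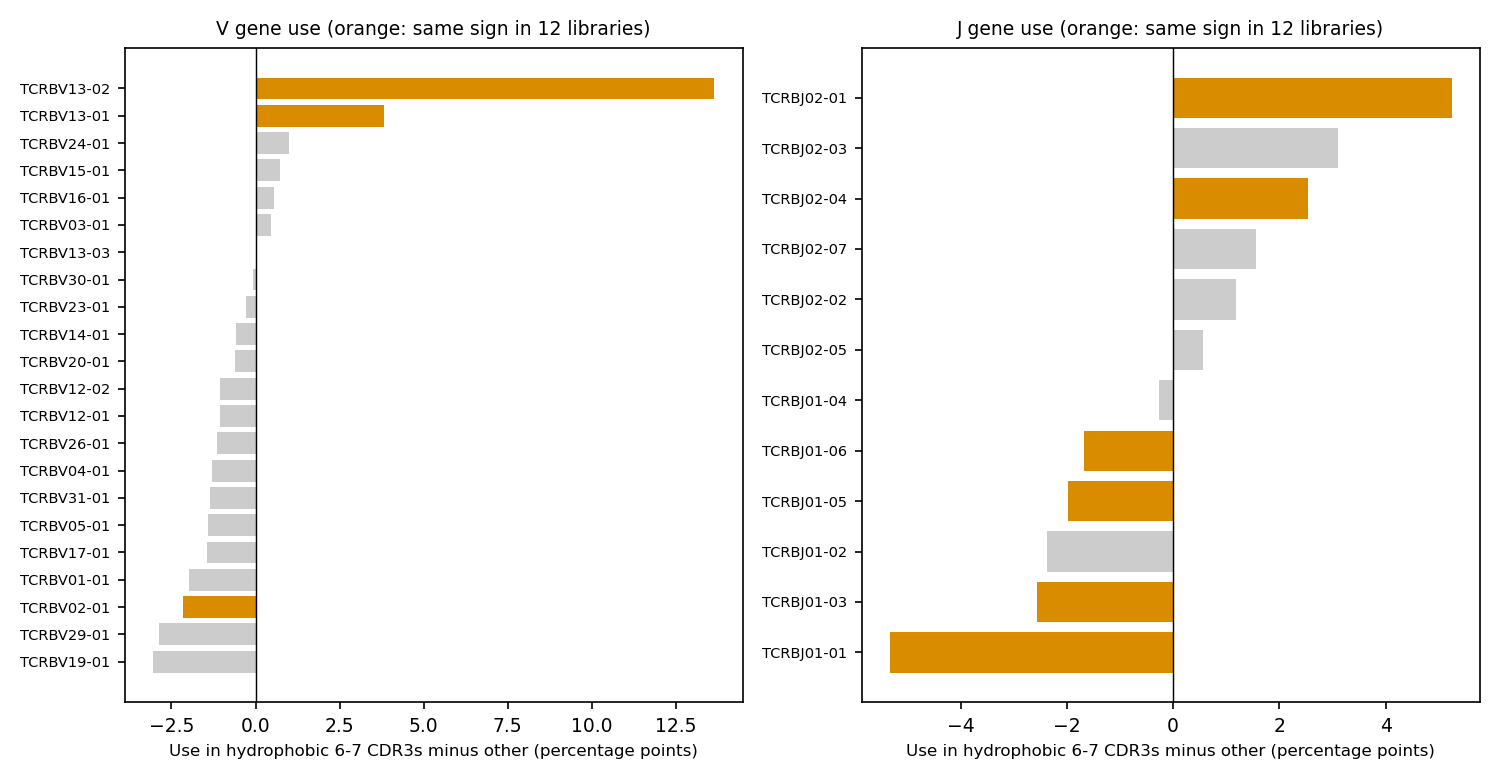
Use of each V gene (left) and J gene (right) among members minus its use among other rearrangements, in percentage points as the mean over 12 libraries, for genes with at least 500 rearrangements. Orange bars have the same sign in 12 libraries, and TCRBV13-02 stands apart at 13.7 percentage points.

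Use of the D segments also differed between members and others. TCRBD02-01 (Trbd2, chr6:41542163-41542176) was assigned to 63.6% ± 3.5 of members and 34.6% ± 0.998 of others, and TCRBD01-01 to 16.5% ± 3.28 and 46.8% ± 1.27, with no overlap between both sets. Members made up 5.38% of rearrangements with TCRBD02-01 and 1.07% of those with TCRBD01-01. Leucine or tryptophan was at position 7 in 29.1% of all TCRBD02-01 rearrangements and in 1.07% of all TCRBD01-01 rearrangements. Of the members, 49.9% had leucine or tryptophan at position 7, and 87.6% of these used TCRBD02-01, against 39.5% of the remaining members. Use of TCRBD02-01 among members was alike in the 4 groups, with means between 63.2% and 64.3%.

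Members also carried more added bases. The number of inserted nucleotides was 4.03 ± 0.210 per member and 3.48 ± 0.0406 per other rearrangement, higher in 12 of 12 libraries, and 4.75% of members had none, against 9.04% of others. Codon 6 held at least 1 inserted base in 84.2% of members and 43.2% of others, and lay wholly in the D segment in 6.89% against 45.7%. A hydrophobic residue followed at position 8 in 11.9% ± 2.22 of members and 21.1% ± 0.329 of others. Hydrophobic residues at positions 6 and 7 co-occurred less often than the product of both shares, with an observed share over that product of 0.738 ± 0.0792 over 12 libraries (0.524 to 0.846).

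**Figure D5:**
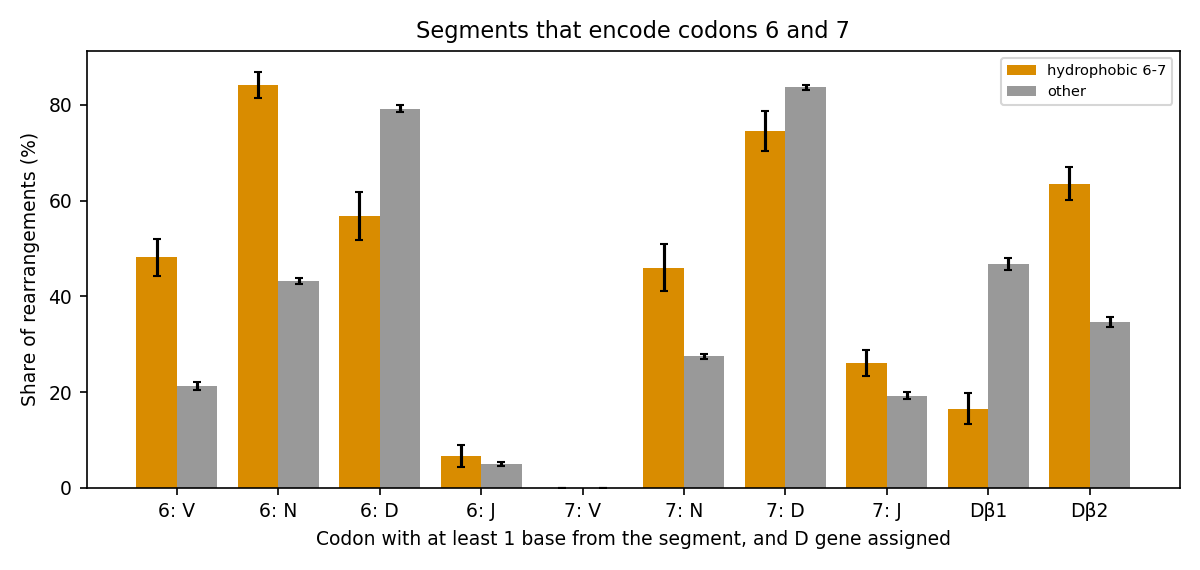
Share (%) of members and of other rearrangements in which codon 6 or codon 7 holds at least 1 base from the V segment, an inserted stretch (N), the D segment or the J segment, and share assigned to each D gene, as the mean with SD over 12 libraries. Members more often have inserted and V bases in codon 6 (84.2% and 48.1%) and more often use Dβ2 (63.6%).

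Of the 81 possible pairs of the 9 residues, 71 were seen, and the 10 leading pairs held 60.7% of members. AL made up 14.3% ± 5.5 of a library's members, AW 10.8% ± 3.17, AA 8.66% ± 2.59, YW 5.70% ± 3.21, VL 4.42% ± 2.25, VW 4.33% ± 1.84, LL 3.58% ± 1.27, VA 3.17% ± 1.51, AV 3.13% ± 1.21 and LA 3.11% ± 1.64. AW, YW, VL, VW and LL used TCRBD02-01 in 86.3% to 96.5% of rearrangements, and AA in 22.1%. YA, outside the leading 10, had both codons in another source, with codon 6 wholly in the J segment in 85.5% of 172 members and TCRBJ02-01 in 88.4%.

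Single pairs were compared between CX3CR1+ T cells and TILs and the CX3CR1- subsets over unique rearrangements. Of 190 residue pairs of any kind with a mean share of at least 0.05%, 27 had an unadjusted p under 0.05 by the exact permutation test (14.2%), 9 higher and 18 lower in the expanded groups, and none passed after Benjamini-Hochberg adjustment. Of the 16 hydrophobic pairs among them, which cover 75.5% of members, 3 had an unadjusted p under 0.05, a count close to that share of all pairs, and 0 passed after adjustment (lowest adjusted p 0.264). LW was at 0.0796% in the expanded groups and 0.0516% in the CX3CR1- subsets (p = 0.0278, exact permutation test). VL was at 0.0832% and 0.180% (p = 0.0185, exact permutation test), and VA at 0.0695% and 0.119% (p = 0.0463, exact permutation test). With 1338 to 2131 rearrangements of at least 11 residues per TIL library, such shares rest on very few reads there. The leading pairs AL (0.450% and 0.361%, p = 0.130, exact permutation test) and AW (0.370% and 0.260%, p = 0.0556, exact permutation test) did not pass.

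Each position alone was also compared over unique rearrangements. A hydrophobic residue at position 6 was found in 19.4% of rearrangements in CX3CR1+ T cells and TILs and 19.2% in the CX3CR1- subsets (p = 0.750, exact permutation test), and at position 7 in 20.8% and 20.6% (p = 0.602, exact permutation test). The CX3CR1+ subset alone was higher than the CX3CR1- subsets at position 6 by 0.587 ± 0.473 percentage points in 3 of 3 experiments, which did not pass the threshold (p = 0.0741, exact permutation test). At position 7 it differed by 0.0543 ± 0.861 (p = 0.852, exact permutation test).

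For comparison, the neighbouring pairs of positions were counted by templates. Hydrophobic residues at positions 5 and 6 together held 7.10%, 7.45% and 8.70% of templates in the CX3CR1+ libraries and 6.45%, 14.8% and 9.30% in TILs, against group means of 8.02% and 7.61% in the CD27lo CX3CR1- and CD27hi CX3CR1- subsets. At positions 7 and 8 they held 3.96%, 2.67% and 2.12% in the CX3CR1+ libraries and 5.33%, 0.927% and 2.99% in TILs, against 2.77% and 2.69%. Neither neighbouring pair was lower in every expanded library, and these values were not tested.

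Rearrangements in frame with a stop codon outside positions 6 and 7 make no chain and were counted as a background. Over all libraries, 86 of 2238 such rearrangements had hydrophobic residues at both positions (3.84%, 95% interval 3.12% to 4.72%), against 2.96% of productive rearrangements of at least 11 residues. By group the counts were 16 of 433 in the CD27lo CX3CR1- subset, 55 of 1493 in the CD27hi CX3CR1- subset, 13 of 260 in the CX3CR1+ subset and 2 of 52 in TILs. The stop-containing set differs from the productive set in CDR3 makeup by its construction, and the difference was not tested.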

How the data were processed

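The authors amplified TCRβ rearrangements in genomic DNA with the ImmunoSEQ assay and sequenced on a NextSeq instrument. The deposited template counts are whole numbers per rearrangement without normalization, and other deposited columns (CDR3 length, inserted bases and segment start positions within the read of 87 bases) were used as given. The submitters' processing notes name mm10, and aligner versions are not given in the sources used here. The files hold no coordinates, and positions of V, D and J segments are from RefSeq (GRCm38.p6), matched by the usual name of each segment.

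Rows in frame without a stop were kept, and the main denominator was rearrangements of at least 11 residues. A clonotype was a nucleotide read. Each base of codons 6 and 7 was assigned to V, inserted, D or J by the deposited start positions. Groups came from the sample labels, and experiments were the block, since libraries of 1 experiment carry the same code. Same-experiment deviations from the group means correlated at 0.864 on average for the unique share and 0.188 (from -0.811 to 0.799) for the template share. Permutations were exact, two-sided and within experiments, with 216 arrangements over 4 groups and 27 within the spleen, at a threshold of 0.05. For 2 groups at a time, signs of the experiment differences were flipped exactly. Functions were tested on simulated data.

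Named CDR3s were the 3 most abundant members of each CX3CR1+ and TIL library, the most abundant of each CX3CR1- library and up to 5 in most libraries. CDR3s over 14 residues are given by length, residues, V and J. V and J genes named for their use had the same sign in 12 libraries, and others are named as segments of a named CDR3, length or pair. Members and lists were chosen with earlier results of these data known. Alternatives were other residue sets, clonotype definitions, denominators, minimum counts, equal depth (5893 templates, 20 draws), standardisation by length, V and J, and leaving out experiments or the most abundant rearrangements. Python 3.11.15, numpy 2.4.6, pandas 2.3.3, scipy 1.17.1 and matplotlib 3.10.9 were used.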

Additional observations from a re-analysis of the deposited data

Results flagged for a closer look

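The difference between template share and unique share of members was not the same in all groups, and this was tested directly. The difference in CX3CR1+ T cells and TILs minus that in the CX3CR1- subsets was -1.24 percentage points and negative in 3 of 3 experiments (p = 0.00926, exact permutation test). It is nearly the difference in template share over again, since the unique share hardly differed. Groups of 3 libraries were too small for a search for single outlying libraries.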

How the results depend on the processing

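The lower template share of members in the expanded groups kept its direction in the alternatives tried except without the 100 most abundant rearrangements, where it turned to 0.126, and it passed the threshold except without the 10, 50 or 100 most abundant rearrangements and in the leave-one-out settings, in which 2 experiments cannot give an exact permutation p below 0.0556 (0.111 within the spleen). All values here are differences from the CX3CR1- subsets in percentage points, for the expanded groups first and the CX3CR1+ subset second. Leaving out 1 experiment at a time gave -1.44 to -1.002 and -1.19 to -0.524 for the template share. It gave -1.51 to -0.890 and -1.32 to -0.511 for template share minus unique share. It gave -0.120 to 0.206 and -0.0133 to 0.183 for the unique share, so that the sign depended on experiment A in the first and B in the second. For position 6 in the expanded groups the range was -0.0528 to 0.618, and for position 7 in the CX3CR1+ subset -0.436 to 0.371.

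Without the 10 most abundant rearrangements the template share differed by -0.600 and -0.341, and template share minus unique share by -0.602 and -0.443. Without 50 the values were -0.0550 and 0.0319, and -0.0566 and -0.0764. Without 100 they were 0.126 and 0.174 for the template share (p = 0.417 and 0.037, exact permutation test), and 0.0998 and 0.0577 for template share minus unique share. With F, I, L, M, V and W as the hydrophobic residues, the template share was -0.397 in the expanded groups, past the threshold, and -0.265 in the CX3CR1+ subset, and template share minus unique share was -0.311 and -0.203, these 3 not past it, while the unique share was -0.0855 (p = 0.0185, exact permutation test) and -0.0629. Standardised by V gene, the CX3CR1+ subset was at -0.569 for the template share and -0.672 for template share minus unique share, not past the threshold. The cause of these changes was not tested.

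The unique share of the expanded groups turned slightly positive when standardised by length (0.0131), V gene (0.00835) or length and J gene (0.0198) and with codon 7 before the J segment (0.0590), and that of the CX3CR1+ subset was -0.00738 at equal depth. For position 6, the values were -0.530 and -0.0365 with CDR3 AA clonotypes, -0.560 (expanded groups) with at least 2 templates, and -0.459 and -0.416 at equal depth. For position 7, they were -0.243 and -0.528 at equal depth and -0.208 (CX3CR1+ subset) with at least 2 templates. None of these passed the threshold. Standardised by J or V gene, position 6 in the CX3CR1+ subset was at 0.624 and 0.630, each past it (p = 0.037, exact permutation test).

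Without the replicate block, the labels being permuted over all libraries, position 6 in the CX3CR1+ subset (0.587) passed the threshold with an exact permutation p of 0.0357, and no other call on the 5 shares changed. The residue pairs with an unadjusted p under 0.05 numbered 34 of 190 without the block (4 of 16 hydrophobic pairs), and none passed after adjustment. Without a minimum mean share, 47 of 385 residue pairs had an unadjusted p under 0.05, against 27 of 190, and none passed after adjustment. Residue pairs could not be called with 2 experiments. Depth limits the TILs most, with 27 to 71 members per library. The test on CDR3s that start with C and the leaving out of 50 or 100 rearrangements were chosen after seeing the data.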
